A study of Homo sapiens with 6 samples.

Results

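The genes described here are 8 genes of coagulation at the cell surface and of protein cross-linking: F3, TFPI, TFPI2, THBD, PROCR, F2R, F2RL1 and TGM2. They were chosen by symbol, with the difference between the 2 groups of this series already known, and all 8 were found, once each, among the 31835 genes of the deposited table. Their differences are therefore given as a description and were not used as support for any statement. The libraries, 3 in each group, came from MDA-MB-231 cells, a widely used triple-negative breast cancer line. One group carried the vector and the other overexpressed ADAMTS1, a secreted metalloprotease made as an inactive zymogen. By its title, the series belongs to work on nuclear ADAMTS1 zymogen, drug resistance and metastasis in breast cancer. The promoter and form of the construct, and whether the cells were pools or clones, are not given in the sources used here.

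Tissue factor, the product of F3, is a transmembrane protein that binds factor VIIa and starts the extrinsic pathway of coagulation, which ends in thrombin. TFPI and TFPI2 are Kunitz-type protease inhibitors. TFPI blocks the tissue factor complex together with factor Xa, while TFPI2 mainly inhibits plasmin and other matrix-associated serine proteases and has been described as a substrate of the ADAMTS1 protein. Thrombomodulin (THBD) and the endothelial protein C receptor (PROCR) turn thrombin toward activation of the anticoagulant protein C. F2R and F2RL1 encode PAR1 and PAR2, G protein-coupled receptors that proteases switch on by cutting their extracellular end. TGM2, transglutaminase 2, cross-links matrix proteins and binds fibronectin and integrins at the cell surface. Tissue factor and both receptors are known for their high level in aggressive breast cancer lines.

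ADAMTS1 itself was listed at 6.56, 6.72 and 6.99 FPKM in the vector libraries and at 499, 462 and 501 FPKM in the ADAMTS1 libraries, so each library matched its label. FPKM is the number of fragments scaled to transcript length and to the mapped total of the library, so levels of different genes can be compared per length. No absolute depth can be given. With the first vector library as the unit, depth ranged from 1.0 to 1.26 in the vector group and from 1.044 to 1.429 in the ADAMTS1 group, and its part in the differences below was not tested. Of markers known to be high in this line, VIM was at 308 ± 5.71 FPKM (SD, n = 3) in the vector group and CD44 at 80.5 ± 2.77 FPKM. Of 6 markers known to be low in it, ESR1, PGR, CDH1 and GATA3 were at no more than 0.0482, 0.145, 0.0434 and 0.301 FPKM in any library. The other 2, ERBB2 and EPCAM, were not near 0, at 5.77 ± 0.351 and 2.74 ± 0.506 FPKM in the vector group and at 5.61 ± 0.241 and 3.28 ± 0.432 FPKM in the ADAMTS1 group. Among 9 endothelial markers, fixed because endothelium is the usual site of THBD, PROCR and TFPI, 8 were in the table. Their summed level was 49.0 to 49.4 FPKM in the vector group and 49.6 to 54.6 FPKM in the ADAMTS1 group, most of it from the junction protein gene ESAM, with a mean of 46.3 FPKM. The defining markers CDH5 and PECAM1 were at no more than 0.0574 and 0.131 FPKM in any library. VWF, TEK and CLDN5 were at no more than 0.0721, 0.0457 and 0.128 FPKM. The receptor genes TIE1 and KDR were higher, at 2.62 ± 0.228 and 0.539 ± 0.139 FPKM in the vector group. In the ADAMTS1 group they were at 3.82 ± 0.205 and 0.584 ± 0.0878 FPKM. Of 9 platelet and leukocyte markers 7 were in the table, and their summed level was 0.752 to 0.981 FPKM in the vector group and 0.477 to 0.978 FPKM in the ADAMTS1 group. A lower number of cells with a transcript and less RNA of it per cell cannot be told apart in such bulk samples.

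All 8 genes were expressed, with levels that spanned about 1 order of magnitude. In the vector group the order from highest to lowest mean was F3, TGM2, F2RL1, PROCR, F2R, THBD, TFPI2 and TFPI. The ADAMTS1 group had the same order. F3, with a mean of 63.6 FPKM over the 6 libraries, stood above 95.1% of the 11897 tested genes, and TGM2, with 57.3 FPKM, above 94.4%. F2RL1 stood above 86.1%, PROCR above 80.0%, F2R above 65.5%, THBD above 61.8%, TFPI2 above 50.8% and TFPI above 47.7%. The initiator of coagulation was thus the most abundant of the 8 transcripts per length and its inhibitor TFPI the least abundant. Most neighbours in this order were separated by more than their spread. The exceptions were TFPI2 and TFPI in the vector group and F2R and THBD in the ADAMTS1 group, whose values overlapped.

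**Figure D1:**
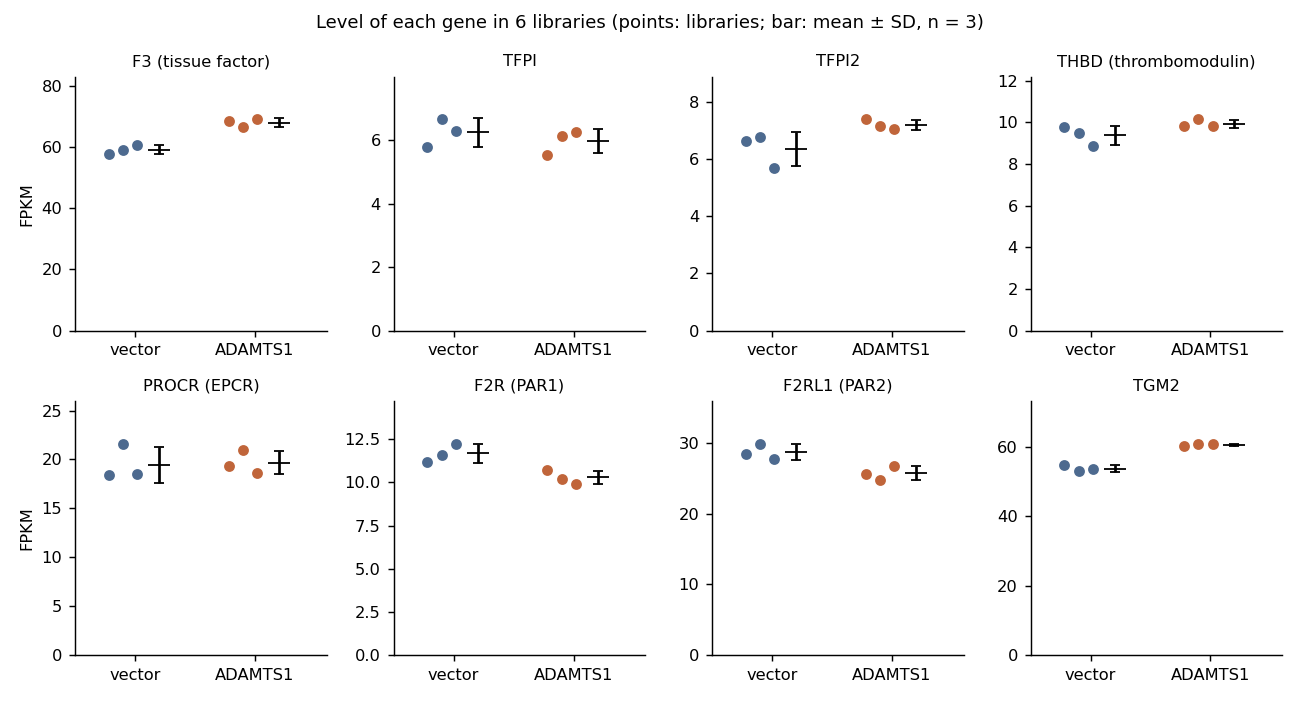
Level in FPKM (vertical axis, from 0) of the 8 genes in the 3 vector and 3 ADAMTS1 libraries. Points are libraries and bars give the mean ± SD. F3 and TGM2 lay higher in every ADAMTS1 library, F2R and F2RL1 lower, and the groups of TFPI and PROCR overlapped.

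The genes lie on 5 chromosomes of hg38. F2R (ENSG00000181104, chr5:76716126-76735770) and F2RL1 (ENSG00000164251, chr5:76818933-76835315) are on the plus strand of chromosome 5, with 83162 bases and 0 protein-coding genes of GENCODE 29 wholly between them. TGM2 (ENSG00000198959, chr20:38127385-38166578, minus strand), THBD (ENSG00000178726, chr20:23045633-23049672, minus strand) and PROCR (ENSG00000101000, chr20:35172072-35216240, plus strand) are spread along chromosome 20. F3 (ENSG00000117525) is at chr1:94529173-94541759, TFPI (ENSG00000003436) at chr2:187464230-187565760 and TFPI2 (ENSG00000105825) at chr7:93885396-93890753, all on the minus strand. THBD is a single-exon gene. Strandedness is not given in the sources used here, and some genes overlap a gene on the other strand, wholly or in part. The protein-coding gene GNGT1, for which no level was used here, spans all 2682 exonic bases of TFPI2. RPRD1B, at a mean of 19.6 FPKM, spans 394 exonic bases of TGM2, and MMP24OS, at 7.60 FPKM, spans 348 exonic bases of PROCR. An antisense gene, AC007319.1, at 1.51 FPKM, spans 11503 of the 11714 exonic bases of TFPI. These spans run from start to end of the other gene, introns included, and overlap of exon with exon was not counted. Reads of stretches that are exonic in both genes cannot be told apart without strand.

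Promoter sequences are shown for the initiator F3, both TFPI genes and the receptor F2RL1, since F3 is a textbook case of a promoter with described AP-1, SP1 and EGR1 sites and the others can be set beside it. They are the 250 bases before the RefSeq start on GRCh38.p14, on the strand of the gene, and 5 of the 8 genes (F3, TFPI, TFPI2, PROCR and F2RL1) were matched in the table of promoters. Capitals mark matches, on either strand, to the letters TGANTCA (AP-1), GGGCGG (SP1) and GCGNGGGCG (EGR1), where N is any base. The F3 sequence is chr1:94541760-94542009 (minus strand), TFPI2 is chr7:93890754-93891003 (minus strand), TFPI is chr2:187554436-187554685 (minus strand) and F2RL1 is chr5:76818780-76819029 (plus strand).
F3: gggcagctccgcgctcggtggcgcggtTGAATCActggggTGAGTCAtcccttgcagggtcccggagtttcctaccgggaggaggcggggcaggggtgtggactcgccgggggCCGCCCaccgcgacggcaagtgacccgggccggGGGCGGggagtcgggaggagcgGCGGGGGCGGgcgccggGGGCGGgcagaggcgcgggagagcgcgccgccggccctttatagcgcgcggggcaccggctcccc
TFPI2: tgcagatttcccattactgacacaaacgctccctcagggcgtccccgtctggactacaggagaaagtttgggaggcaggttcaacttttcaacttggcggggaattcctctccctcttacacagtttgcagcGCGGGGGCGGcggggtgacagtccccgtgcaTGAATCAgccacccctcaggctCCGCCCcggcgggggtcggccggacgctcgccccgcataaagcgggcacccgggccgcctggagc
TFPI: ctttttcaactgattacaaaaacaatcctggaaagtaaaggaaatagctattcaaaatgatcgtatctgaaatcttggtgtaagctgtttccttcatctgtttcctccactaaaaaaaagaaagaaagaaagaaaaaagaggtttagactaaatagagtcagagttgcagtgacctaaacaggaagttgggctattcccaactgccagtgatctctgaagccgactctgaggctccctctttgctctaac
F2RL1: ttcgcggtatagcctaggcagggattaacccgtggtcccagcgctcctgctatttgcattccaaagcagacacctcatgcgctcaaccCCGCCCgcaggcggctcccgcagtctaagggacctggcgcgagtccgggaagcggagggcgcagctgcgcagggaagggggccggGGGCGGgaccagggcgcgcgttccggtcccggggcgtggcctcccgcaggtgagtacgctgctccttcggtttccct

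In windows of 300 bases, from 250 before to 50 after the start, F3 held 2 AP-1, 4 SP1 and 1 EGR1 matches. TFPI2 held 1 AP-1, 2 SP1 and 1 EGR1 matches. In both, the EGR1 match overlapped an SP1 match. F2RL1 held 3 SP1 matches, 1 of them after the start, PROCR held 2, and the TFPI window held none of the 3 motifs. Of 35116 RefSeq windows of this length, 7.71% held the AP-1 letters, 45.0% the SP1 letters and 9.43% the EGR1 letters. The GC content was 77.3% for F3, 69.0% for F2RL1, 65.3% for TFPI2, 61.0% for PROCR and 39.3% for TFPI, beside a median of 58.7% over all windows. The TFPI window belongs to a start that lies inside the gene as the deposited table places it, while the TFPI2 window lies at the 5′ end of its gene, so these 2 windows are not set against each other. A match is a description of letters.

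**Figure D2:**
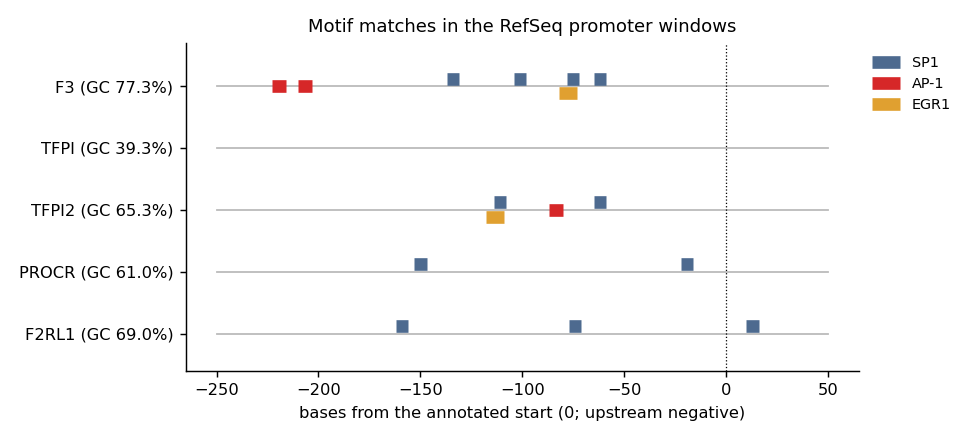
Motif matches (coloured blocks) along the RefSeq promoter windows of 5 genes, by distance in bases from the annotated start, with the GC content of each window beside its name. F3 has 2 AP-1, 4 SP1 and 1 EGR1 matches and TFPI none.

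The question put to these libraries was whether the cell-surface coagulation genes differ when ADAMTS1 is overexpressed. Changes below subtract the vector mean from the ADAMTS1 mean of log2(FPKM + 1) and carry the standard error of a limma fit over all tested genes. The largest was that of F3, at 0.20, and the smallest that of PROCR, at 0.014. Of the 8 genes, 0 passed an adjusted p of 0.05 over all tested genes by limma, a threshold that 0.0672% of tested genes passed. An unadjusted p under 0.05 was reached by 5 of them, F3, TGM2, TFPI2, F2R and F2RL1, and by 12.2% of tested genes. The values of the groups did not overlap in 6 of the 8, as in 18.8% of tested genes. Of these 6, 4 were higher in the ADAMTS1 group, as were 8.15% of tested genes, and 2 were lower, as were 10.6%. The genes were chosen with this contrast known, so nothing is read from these counts. The median change was 0.044 over the 8 genes and −0.0078 over all tested genes.

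F3 was at 57.7, 59.0 and 60.7 FPKM in the vector libraries and at 68.5, 66.6 and 69.1 FPKM in the ADAMTS1 libraries. Every ADAMTS1 library was above every vector library, by at least 5.88 FPKM. The mean was 15.1% higher, 59.1 ± 1.51 against 68.1 ± 1.33 FPKM, and the change was 0.20 ± 0.029.

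TFPI, the inhibitor of the tissue factor complex, was at 5.77, 6.65 and 6.29 FPKM in the vector libraries and at 5.54, 6.12 and 6.24 FPKM in the ADAMTS1 libraries. These groups overlapped, and the change of −0.054 ± 0.063 had a 95% interval from −0.20 to 0.093. Leaving out 1 library moved it to −0.10 (vector replicate 1), −0.013 (vector replicate 2), −0.0095 (replicate 1 of the ADAMTS1 group) or −0.082 (replicate 3 of that group). TFPI2 was at 6.62, 6.76 and 5.67 FPKM in the vector libraries and at 7.38, 7.13 and 7.05 FPKM in the ADAMTS1 libraries. Its groups were separate, but the third vector library was well below the other two, and the spread was 9.38% of the mean in the vector group. The change of TFPI2 was 0.16 ± 0.064 with all libraries and 0.090 without vector replicate 3.

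THBD, the thrombin-binding cofactor of protein C activation, was at 9.79, 9.50 and 8.89 FPKM in the vector libraries and at 9.81, 10.1 and 9.85 FPKM in the ADAMTS1 libraries. The groups came within 0.0263 FPKM of each other. The change was 0.074 ± 0.043, with a 95% interval from −0.026 to 0.18, and it was 0.039 without vector replicate 3. PROCR, which presents protein C to that complex, was at 18.4, 21.6 and 18.5 FPKM in the vector libraries and at 19.4, 21.0 and 18.6 FPKM in the ADAMTS1 libraries. The second library of each group was the highest and the groups overlapped. The PROCR change of 0.014 ± 0.070 had a 95% interval from −0.15 to 0.18 and took a negative sign in 3 of the 6 fits that left out a library.

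F2R, the thrombin receptor PAR1, was at 11.2, 11.6 and 12.2 FPKM in the vector libraries and at 10.7, 10.2 and 9.93 FPKM in the ADAMTS1 libraries. F2RL1, the receptor PAR2 for trypsin-like proteases and for the complex of tissue factor and factor VIIa, was at 28.5, 29.9 and 27.7 FPKM in the vector libraries and at 25.6, 24.7 and 26.7 FPKM in the ADAMTS1 libraries. Both receptors were lower in every ADAMTS1 library than in any vector library, with gaps of 0.465 FPKM for F2R and 0.976 FPKM for F2RL1. The ratio of the ADAMTS1 mean to the vector mean was 0.881 for F2R and 0.896 for F2RL1. The changes were −0.17 ± 0.045 for F2R and −0.15 ± 0.040 for F2RL1.

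TGM2 was at 54.8, 53.0 and 53.6 FPKM in the vector libraries and at 60.3, 60.8 and 61.0 FPKM in the ADAMTS1 libraries. The groups were separated by 5.52 FPKM, and the spread was 1.72% of the mean in the vector group and 0.571% in the ADAMTS1 group, the smallest of the 8 genes in each. Over tested genes with a mean between 5 and 100 FPKM the median spread was 3.75% and 3.74%. The mean of TGM2 was 12.9% higher in the ADAMTS1 group, and the change was 0.17 ± 0.024. F3 and TGM2 did not pass the threshold over the 11897 tested genes, with a limma adjusted p of 0.0922 each. Among the 6957 genes with a mean of at least 5 FPKM they did, with 0.0349 and 0.0351, a setting that changes the number of genes tested and the spread estimated over them.

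**Figure D3:**
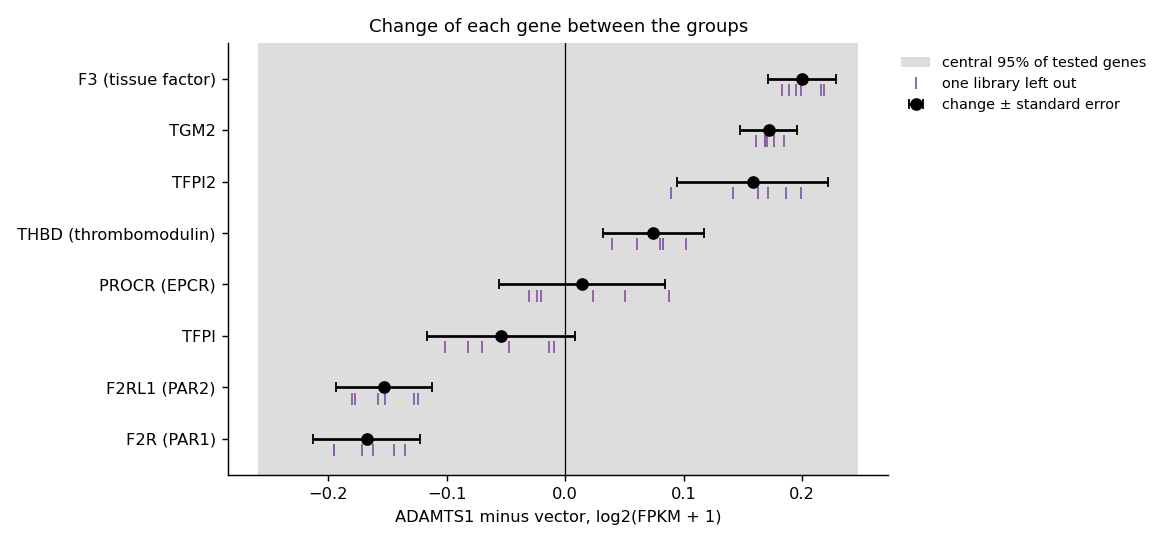
Change of each gene between the groups (horizontal axis, ADAMTS1 minus vector, log2(FPKM + 1)) with its standard error (black), the 6 values with one library left out (purple ticks) and the range from −0.259 to 0.248 that holds the central 95% of tested genes (grey). All 8 changes lie inside that range, and the ticks of PROCR fall on both sides of 0. The range includes genes down to a mean of 1 FPKM. A larger absolute change than that of F3 was seen in 7.92% of tested genes, and in 3.1% of those with a mean of at least 5 FPKM.

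Ratios of levels within a library do not depend on how libraries are scaled. The ratio of F3 to TFPI was 9.998, 8.88 and 9.64 in the vector libraries and 12.4, 10.9 and 11.1 in the ADAMTS1 libraries, so the groups were separate. Per length, tissue factor transcripts outnumbered those of TFPI in each library. TFPI2 was itself higher in the ADAMTS1 group, and the ratio of F3 to TFPI2 was 9.38 ± 1.149 and 9.48 ± 0.289, with overlapping groups. F3 to THBD was 6.31 ± 0.474 and 6.85 ± 0.254, and F3 to PROCR was 3.05 ± 0.288 and 3.47 ± 0.272, both with overlapping groups. F3 and TGM2 kept nearly the same ratio, 1.099 ± 0.0419 in the vector group and 1.12 ± 0.0229 in the ADAMTS1 group. The 2 receptors did so too, with an F2RL1 to F2R ratio of 2.46 ± 0.174 and 2.50 ± 0.163. These ratios rest on the differences already given and were not tested.

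**Figure D4:**
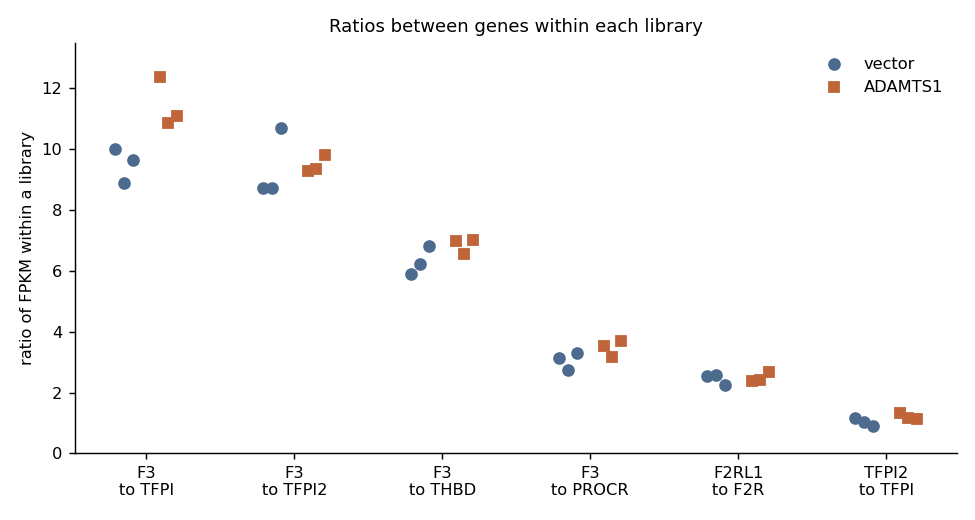
Ratio of the FPKM of 2 genes within each library (vertical axis, from 0) for 6 pairs, with vector libraries as circles and ADAMTS1 libraries as squares. F3 to TFPI lies between 8.88 and 9.998 in the vector group and between 10.9 and 12.4 in the ADAMTS1 group, while F2RL1 to F2R overlaps.

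The genes whose pattern over the 6 libraries was most like that of F3 were EIF4A2, a translation initiation helicase gene (Pearson r = 0.996), PNMA2 (r = 0.993) and ACLY, which encodes ATP citrate lyase (r = 0.992). EIF4A2 was at 95.3, 96.3 and 98.4 FPKM in the vector libraries and at 104, 102 and 104 FPKM in the ADAMTS1 libraries. Of 11896 genes compared, 205 had an r of at least 0.9 with F3. The 6 points share their libraries and form 2 groups. A gene that differs in the same direction, with little spread within the groups, therefore has a high r. For scale, 970 tested genes had every ADAMTS1 value above every vector value.

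Around these genes, 114 others of the same pathways were listed from textbook knowledge, but with earlier results of these data known. The calls in these lists, that of MMP1 included, are therefore a description. Of the 114, 96 were in the table and 57 reached the mean of 1 FPKM for testing. Only MMP1 passed the adjusted threshold, upward, as 0.0588% of tested genes did, and 56 did not pass. Their median change was −0.0071, with 28 above 0 and 29 below. An unadjusted p under 0.05 was reached by 5 upward, where 5.42% of tested genes did so, and by 4 downward, where 6.78% did so.

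Few genes of the soluble cascade reached 1 FPKM. Of 24 clotting factors, protein C system genes and plasma inhibitors, 17 were in the table and 3 were tested, and 0 passed by limma. An unadjusted p under 0.05 was reached by 2, both upward, as by 5.42% of tested genes. The most abundant were PROS1, which encodes protein S, the cofactor of activated protein C and of TFPI, at 4.61 ± 0.0998 and 5.45 ± 0.0432 FPKM, and SERPINE2, which encodes the thrombin inhibitor protease nexin-1, at 3.99 ± 0.0415 and 4.52 ± 0.135 FPKM. F10, the zymogen of factor Xa, was at no more than 0.177 FPKM in any library. All 6 genes that process clotting factors were tested and 0 passed (0 at an unadjusted p under 0.05). The cargo receptor genes for factors V and VIII, MCFD2 and LMAN1, were at 71.7 ± 1.27 and 72.1 ± 1.27 FPKM and at 57.3 ± 0.832 and 58.2 ± 0.601 FPKM. Of 9 tested genes of phosphatidylserine exposure and of the thiol exchange that is held to activate tissue factor, 0 passed (0 at an unadjusted p under 0.05). The disulfide isomerase genes PDIA4 and PDIA3 led with 125 ± 1.80 and 121 ± 2.83 FPKM and with 88.0 ± 1.604 and 90.0 ± 1.05 FPKM.

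For the receptors, the other 2 family members were low. F2RL2 (PAR3) was at 0.306 ± 0.0499 and 0.444 ± 0.121 FPKM and F2RL3 (PAR4) at 0.250 ± 0.127 and 0.334 ± 0.142 FPKM. Neither reached the mean of 1 FPKM for testing. Of 14 tested genes for G proteins, effectors and arrestins of PAR signalling, 0 passed (0 at an unadjusted p under 0.05). A change above 0 was seen in 3 of them and below 0 in 11, beside 5532 above and 6365 below among all tested genes. RHOA, the GTPase downstream of coupling through GNA12 and GNA13, was at 141 ± 1.84 and 145 ± 2.13 FPKM, and the inhibitory G protein gene GNAI2 was at 71.3 ± 2.43 and 69.3 ± 0.532 FPKM.

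Of 15 other proteases that can cut PAR1 or PAR2, 3 were tested. All 3 had a change above 0, beside 5532 above and 6365 below among all tested genes. MMP1 alone passed the adjusted threshold, as 0.0588% of tested genes did upward. An unadjusted p under 0.05 was reached by 2 (MMP1 and CTSS, both upward), as by 5.42% of tested genes. The list was written with earlier results of these data known, so nothing is read from these counts. MMP1, the interstitial collagenase, which also cleaves and activates PAR1 on breast cancer cells, was at 9.74, 9.001 and 9.50 FPKM in the vector libraries and at 14.7, 14.3 and 13.4 FPKM in the ADAMTS1 libraries. All 3 ADAMTS1 values were higher, and the change was 0.54 ± 0.046 (limma adjusted p = 0.0246). The receptor that it cuts, F2R, was lower in the same libraries, by 11.9% of the vector mean. The call of MMP1 was lost without vector replicate 1, 2 or 3 (adjusted p = 0.115, 0.0891 and 0.148) and without ADAMTS1 replicate 1 or 2 (0.0884 and 0.159), and was kept without ADAMTS1 replicate 3 (0.0341). The other abundant protease of the list, the cathepsin gene CTSS, was at 3.30 ± 0.280 and 4.31 ± 0.259 FPKM, which did not pass the threshold.

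Genes known to be induced by tissue factor, thrombin or PAR2 signalling had a median change of −0.011. Of 12 tested, 0 passed by limma. An unadjusted p under 0.05 was reached by 1 upward and 2 downward, beside 5.42% and 6.78% of tested genes. The most abundant were the matricellular genes CCN1, at 376 ± 6.14 and 369 ± 2.45 FPKM, and CCN2, at 157 ± 2.13 and 155 ± 5.09 FPKM. Of the other Kunitz-type inhibitors, 3 were tested and 0 passed. SPINT2 was at an unadjusted p under 0.05, downward, as were 6.78% of tested genes. APLP2 and APP, which carry a Kunitz domain in some isoforms, were at 140 ± 2.44 and 141 ± 1.18 FPKM and at 73.6 ± 1.79 and 71.7 ± 0.248 FPKM.

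TGM2 was the only transglutaminase gene of those in the table with a mean of at least 1 FPKM. Of 8 others listed, 4 were in the table, and the most abundant, the keratinocyte enzyme gene TGM1, was at 0.459 ± 0.103 and 0.443 ± 0.133 FPKM. F13A1, the transglutaminase that stabilises fibrin, was at no more than 0.0413 FPKM in any library. Of 7 tested partners of TGM2 at the cell surface, 0 passed. MFGE8 was at an unadjusted p under 0.05, downward, as were 6.78% of tested genes. The heparan sulfate proteoglycan gene SDC4 was at 194 ± 6.98 and 204 ± 3.54 FPKM, and the integrin gene ITGB1 at 67.9 ± 0.324 and 67.4 ± 0.936 FPKM.

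**Figure D5:**
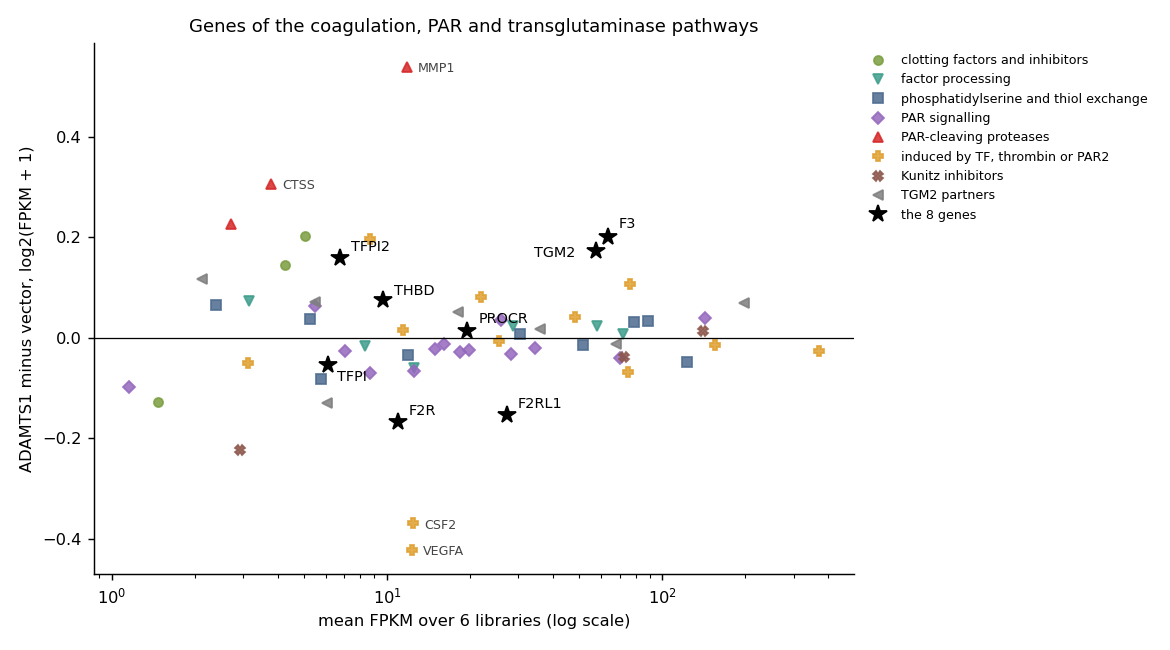
Change between the groups (vertical axis, ADAMTS1 minus vector, log2(FPKM + 1)) against mean FPKM (horizontal log axis) for the 8 genes (stars) and the tested genes of 8 pathway lists (coloured symbols). MMP1, at 0.54, is the gene past the adjusted threshold, and F2R and F2RL1 lie below 0 with F3, TGM2 and TFPI2 above it.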

How the data were processed

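Illumina libraries were made from total RNA of MDA-MB-231 cells, per the labels' protocols. The values are FPKM that the authors deposited per gene and library. FastQC, HISAT2 and StringTie are named, with build hg38, per the submitters' processing notes, without versions or roles. No label says that the 3 libraries of a group are separate cultures. P-values therefore refer to the spread between libraries, which may be technical.

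The table held 32119 entries. One entry per symbol was kept, that with the highest mean, which left 31835 genes. Relative depth came from the commonest ratio between values of 0.02 to 0.5 FPKM. Each pair of libraries had at least 5427 genes in that window and at least 691 at the commonest ratio. Correlations of log2(FPKM + 1) between libraries were 0.9886 to 0.9929. Genes with a mean of at least 1 FPKM (11897) were tested on log2(FPKM + 1), a scale that reduces the change of low genes, with limma 3.58.1 (eBayes with trend) in R 4.3.3. P-values were two-sided and adjusted by the Benjamini-Hochberg method over all tested genes at 0.05. The code was tested on simulated data. Gene structure came from GENCODE 29 (GRCh38) and promoters from RefSeq (GRCh38.p14). Plots used Matplotlib 3.10.9.

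The members and lists were chosen with earlier results of these data known. The naming rule took all 8 members, ADAMTS1, list genes past the threshold, the 2 most abundant of each list, and the 3 genes most like the most abundant member. Genes named beyond it were chosen after their values were seen. They are F10, F2RL2, F2RL3, F13A1, SPINT2, MFGE8, VEGFA, CSF2, CXCL1 and the markers other than ESAM, TIE1, VIM, ERBB2 and EPCAM. One listed gene is not reported here and was left out of the list counts. Alternatives were another pseudocount, other filters, 3 scalings, eBayes without trend, a replicate block, summed symbols, and each library left out.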

Additional observations from a re-analysis of the deposited data

How the results depend on the processing

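The differences of F3, TGM2, TFPI2 and THBD were above 0 and those of TFPI, F2R and F2RL1 below 0 in the main fit and all 15 alternatives, while PROCR was below 0 in 3, each without a library (lowest −0.031, highest 0.088). The F3 change ranged from 0.18 to 0.22 and that of TGM2 from 0.16 to 0.19. The number of the 8 genes past the threshold was 0 except with a minimum mean of 5 FPKM, where it was 2 (F3 and TGM2). The count over all tested genes was 8. It was 1 with no filter on low values, 31 with a minimum mean of 5 FPKM, 3 with a common sum of FPKM, 2 with eBayes without trend and 1 to 5 with one library left out. The count over the wider lists was 1. It was 0 with no filter and with eBayes without trend, 2 with a minimum mean of 5 FPKM (MMP1 and VEGFA) and 0 to 1 with one library left out. Apart from the number of genes or libraries that some settings change by construction, the cause was not tested. The groups share replicate numbers. Over all tested genes, deviations of same-numbered libraries correlated at −0.002, 0.018 and −0.093, so no pairing by number was seen. That does not settle how the libraries were made, or whether single genes share a deviation. With the replicate number as a block 1 gene passed over all, 0 in the wider lists (MMP1 adjusted p = 0.147) and 0 of the 8. Without read counts, how far depth limits the low genes is unknown.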

Other observations

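VEGFA and CSF2, outside the naming rule and chosen after their values were seen, differed more than the 8 genes did, without passing the adjusted threshold. VEGFA, the angiogenic factor gene that tissue factor signalling is known to induce, was at 14.9, 13.9 and 13.9 FPKM in the vector libraries and at 11.05, 9.49 and 10.7 FPKM in the ADAMTS1 libraries (change −0.42 ± 0.059, limma adjusted p = 0.0922). CSF2, which encodes the cytokine GM-CSF, was at 14.0, 15.5 and 13.02 FPKM and at 11.4, 10.1 and 10.8 FPKM (change −0.37 ± 0.068, limma adjusted p = 0.155). In both genes every ADAMTS1 library was below every vector library. CXCL1, of the same list of induced genes and also chosen after its values were seen, went the other way with a smaller change. Its levels were 73.5, 75.6 and 71.2 FPKM and 80.3, 80.9 and 76.2 FPKM (change 0.11 ± 0.034, limma adjusted p = 0.311). The relation of these genes to F3 was not tested. TIE1, a receptor gene, is within the naming rule, among the 2 most abundant endothelial markers. It was at 2.41, 2.60 and 2.86 FPKM and at 3.61, 4.02 and 3.83 FPKM (change 0.41 ± 0.067, limma adjusted p = 0.116). CDH5 and PECAM1 were near 0.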
